A study of Mus musculus with 28 samples.

Results

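Acetylation of lysine 27 of histone H3 (H3K27ac) was called at 6120 promoters in every one of 12 libraries of mouse germ cells, from spermatogonia to round spermatids. These 6120 regions were selected on the measured peak calls. Overlapping peaks of the 12 libraries (at least 1 bp) were merged into 129187 regions, of which 9239 held a peak in all 12 libraries and 8165 of those held at least 1 peak of the promoter class. Of these, 2035 were left out because a peak reached 3000 bp or more, and 10 because they overlapped a peak of an input library. The 6120 promoters made up 4.74% of all merged regions and 33.6% of the 18195 regions with a promoter peak in any library.

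H3K27ac is placed by the acetyltransferases p300 and CBP, removed by histone deacetylases and read by bromodomain proteins. It marks promoters in use and active enhancers. Promoters of housekeeping genes, whose products every cell needs for transcription, splicing, translation and energy supply, tend to lie in CpG islands, stretches rich in C and G in which the CG dinucleotide has not been depleted. Male germ cells pass from mitotic spermatogonia through meiosis to haploid spermatids while much of their transcript content is exchanged, and in meiotic prophase the X and Y chromosomes are transcriptionally silenced.

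The cells came from testes of C57BL/6 mice, wild type (WT) or with a knockout of Scml2 (KO), an X-linked gene for a Polycomb-related protein. On postnatal day 7, spermatogonia with surface Thy1 or c-Kit were taken; adults gave spermatocytes in the pachytene stage of meiosis (PS) and haploid round spermatids (RS). There were 2 libraries in each of 6 groups, which were WT and KO for both kinds of spermatogonia but KO alone for PS and RS, and 16 input libraries of unprecipitated chromatin covered 8 groups of 2. H3K27ac in WT PS and WT RS was not analysed here, so comparisons that reach adult cells were within the knockout and joined stage with age. Isolation was magnetic (MACS) or by sedimentation in a gradient (STA-PUT), without a statement of which cells had which; the labels do not say whether 2 libraries of a group came from separate animals, and p-values measure the spread between these libraries, which may be technical. The Scml2 promoter was not among the 6120. It had a peak in 0 of 4 WT libraries, all of spermatogonia, and in 4 of 8 KO libraries. The latter were Thy1+ KO replicate 1, c-Kit+ KO replicate 1 and both of PS KO, so stage and genotype are mixed in these counts. Since the labels do not say which part of the gene was deleted, this checks no label.

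The measure was the fold enrichment of the highest summit of a library in a region, a ratio of its height to the background height of that library. The libraries held 17877 to 73316 peaks, and the 6120 promoters accounted for 44.4% of the peaks of Thy1+ WT replicate 2 and for 10.5% of those of RS KO replicate 1. The read depth is unknown; the background height lay between 0.564 and 1.62. The median fold enrichment of the 6120 promoters was 8.06 to 10.9 in 7 of the 8 spermatogonial libraries and 17.2 in the eighth, Thy1+ KO replicate 1, and it was 13.5 to 19.7 in the 4 adult libraries. Groups are therefore tested only after each library has been centred, on the log2 scale, on its median over the regions considered; fold enrichments are printed uncentred and carry these differences in level.

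**Figure D1:**
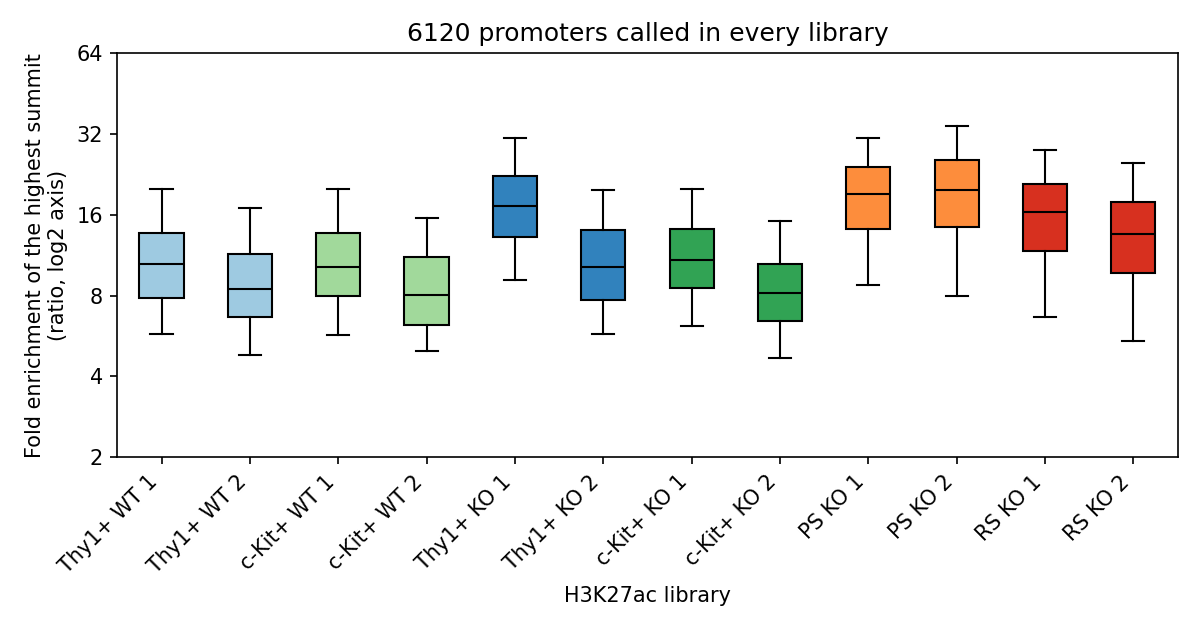
Fold enrichment of the highest summit (ratio, log2 axis) at the 6120 promoters in each H3K27ac library. Boxes span the quartiles, lines mark medians and whiskers the 5th and 95th percentiles; the medians run from 8.06 in c-Kit+ WT replicate 2 to 19.7 in PS KO replicate 2, and Thy1+ KO replicate 1 stands above the other spermatogonial libraries at 17.2.

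The rule has 2 edges. The promoters of Cyb5r3 and Slc2a8, with longest peaks of 2998 and 2999 bp, were the last inside the length limit, and those of Trim65 and Pde12, both at 3000 bp, the first outside. Their median fold enrichments over the 12 libraries were 19.0 and 8.71 inside and 9.47 and 12.7 outside. Another 742 promoter regions were called in 11 of 12 libraries, and the missing library was c-Kit+ WT replicate 2 for 216 of them, c-Kit+ KO replicate 2 for 175 and Thy1+ WT replicate 2 for 152. Wipf2 was among them, with a median fold enrichment of 11 in the 11 libraries that called it. The weakest single calls inside were those of Abcd2 (3.05 in PS KO replicate 1) and Acss3 (3.13 in RS KO replicate 1).

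Sequences are shown for 8 promoters: the 2 with the highest mean level, the highest of the others that holds each of 5 motifs in the bases shown, and the lowest. They were taken among matched regions listed under a single gene symbol. Each is the RefSeq sequence of 250 bases before the transcription start in GRCm38.p6, read 5′ to 3′ on the strand of the gene. Nr1d2 (chr14:18239107-18239356 on the − strand) encodes REV-ERBβ, a nuclear receptor of the circadian clock, and Cnbp (chr6:87851107-87851356 on the − strand) a nucleic acid binding zinc finger protein. Capitals mark matches on either strand to the CCAAT box bound by NF-Y (CCAAT, or ATTGG on the other strand), the ETS core (CCGGAAG), the NRF1 core (GCGCATGC), the TATA box (TATAAA) and the cyclic AMP response element, CRE (TGACGTCA).

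Nr1d2: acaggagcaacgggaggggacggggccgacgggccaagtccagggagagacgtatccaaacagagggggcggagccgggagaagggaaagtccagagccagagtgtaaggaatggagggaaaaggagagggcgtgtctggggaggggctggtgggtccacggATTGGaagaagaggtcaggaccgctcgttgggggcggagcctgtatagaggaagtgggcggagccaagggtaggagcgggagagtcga
Cnbp: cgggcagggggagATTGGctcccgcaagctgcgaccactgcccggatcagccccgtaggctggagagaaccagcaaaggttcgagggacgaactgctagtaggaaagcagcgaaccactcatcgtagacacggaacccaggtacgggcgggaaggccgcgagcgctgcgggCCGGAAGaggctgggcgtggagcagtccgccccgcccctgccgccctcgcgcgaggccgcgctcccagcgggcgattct

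The Nr1d2 sequence held 15 CG dinucleotides and 1 CCAAT box, 88 bases before the start. That of Cnbp held 28, with a CCAAT box at 237 and an ETS core at 79 bases before the start. The next 5 sequences are, for each motif, the highest promoter not already shown, and only that motif is in capitals. They are B930059L03Rik for NRF1 (chr12:110591124-110591373 on the + strand), Bcl2l13 for ETS (chr6:120835980-120836229 on the + strand), Tpp2 for the CCAAT box (chr1:43933744-43933993 on the + strand), Cul5 for the TATA box (chr9:53667508-53667757 on the − strand) and Zfp335 for CRE (chr2:164911751-164912000 on the − strand).

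B930059L03Rik: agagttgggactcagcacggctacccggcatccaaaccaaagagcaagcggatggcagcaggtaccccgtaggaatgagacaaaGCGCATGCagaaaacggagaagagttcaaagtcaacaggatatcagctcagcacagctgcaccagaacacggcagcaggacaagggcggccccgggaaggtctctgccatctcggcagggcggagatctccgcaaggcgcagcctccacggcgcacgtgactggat
Bcl2l13: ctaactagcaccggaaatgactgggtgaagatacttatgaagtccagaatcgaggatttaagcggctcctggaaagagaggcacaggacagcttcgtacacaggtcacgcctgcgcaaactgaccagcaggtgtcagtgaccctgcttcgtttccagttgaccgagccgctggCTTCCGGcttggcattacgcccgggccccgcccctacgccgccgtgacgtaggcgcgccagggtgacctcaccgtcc
Tpp2: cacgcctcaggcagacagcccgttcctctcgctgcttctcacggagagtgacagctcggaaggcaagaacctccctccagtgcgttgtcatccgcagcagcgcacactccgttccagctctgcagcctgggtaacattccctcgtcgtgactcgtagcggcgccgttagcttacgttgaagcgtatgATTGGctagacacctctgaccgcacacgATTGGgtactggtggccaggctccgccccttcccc
Cul5: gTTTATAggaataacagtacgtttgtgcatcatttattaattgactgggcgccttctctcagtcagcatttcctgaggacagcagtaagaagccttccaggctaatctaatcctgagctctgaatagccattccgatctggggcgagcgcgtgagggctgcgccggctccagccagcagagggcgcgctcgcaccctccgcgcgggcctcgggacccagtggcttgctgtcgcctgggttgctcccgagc
Zfp335: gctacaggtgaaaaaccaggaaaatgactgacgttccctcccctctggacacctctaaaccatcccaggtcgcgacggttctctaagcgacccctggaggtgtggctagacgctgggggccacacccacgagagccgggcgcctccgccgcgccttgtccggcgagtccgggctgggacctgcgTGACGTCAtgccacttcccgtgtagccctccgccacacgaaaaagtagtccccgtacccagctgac

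Bcl2l13 encodes a mitochondrial protein of the BCL2 family, Tpp2 the protease tripeptidyl peptidase II and Cul5 the scaffold of a ubiquitin ligase. The CRE of Zfp335 lay 66 bases and the ETS core of Bcl2l13 77 bases before the start, and Tpp2 held CCAAT boxes at 63 and 35 bases. The only TATA match of Cul5 began 249 bases before the start. Over the 12 libraries the fold enrichment ran from 19.8 to 42.5 at B930059L03Rik, from 19.3 to 38.5 at Bcl2l13, from 19.3 to 53.3 at Tpp2, from 22.9 to 40.5 at Cul5 and from 16.7 to 44.8 at Zfp335. All of these calls lay above the strongest of Tmem74b, at 7.09. The lowest promoter of the set, Tmem74b (chr2:151701758-151702007 on the + strand), held 6 CG dinucleotides and none of the 5 motifs in this window.

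Tmem74b: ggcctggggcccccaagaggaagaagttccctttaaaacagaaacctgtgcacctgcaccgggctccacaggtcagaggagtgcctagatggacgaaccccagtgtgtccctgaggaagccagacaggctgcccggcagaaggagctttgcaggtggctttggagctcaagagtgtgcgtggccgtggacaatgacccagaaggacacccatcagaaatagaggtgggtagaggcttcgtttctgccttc

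A RefSeq promoter sequence of 300 bases, from 250 before to 50 after a start inside the region, was matched by accession or symbol for 4940 of the 6120 promoters (80.7%). Chromosome 18, with 177 of them, is not covered. The median GC content of the 4940 sequences was 61.7% (quartiles 56.0% and 67.7%), against 52.7% over all 32851 promoters of the table. The ratio of observed to expected CG dinucleotides was 0.810 (quartiles 0.672 and 0.933), against 0.384 (0.176 and 0.750). Of the 4940, 78.5% had both a GC content over 50% and a ratio over 0.6, limits often used for CpG islands, against 33.3% of the table. The set itself was mixed: the 1060 promoters outside these limits had a median level of -0.28, as the mean over the 12 libraries of the centred log2 fold enrichment, and the 3880 inside one of 0.04.

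Over all RefSeq starts of the table, the ratio was low where few libraries had a peak. Its median was 0.210 at the 16184 starts in no H3K27ac region, 0.285 at the 1755 starts called in 4 libraries, 0.490 at 5 libraries, 0.698 at 11 and 0.820 at the 10031 starts in regions called in all 12. The 1707 matched promoters called in all 12 but left out for a long peak had a median of 0.855.

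**Figure D2:**
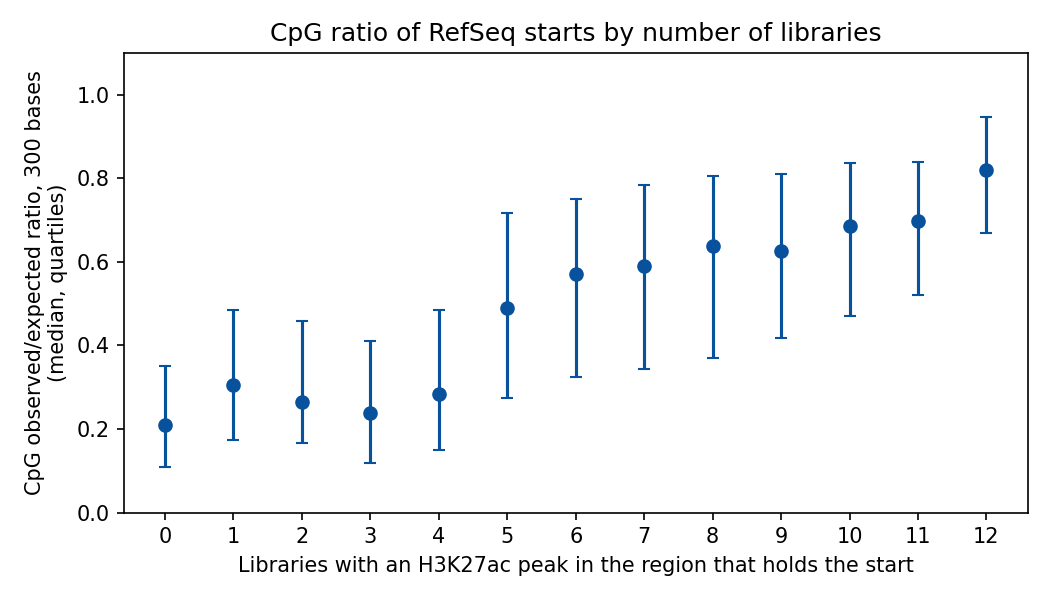
Observed over expected CG dinucleotides in the 300 bases around each RefSeq start, by the number of H3K27ac libraries with a peak in the region that holds the start. Points are medians and bars quartiles; the median is 0.285 at 4 libraries, 0.490 at 5 and 0.820 at 12.

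Exact motif matches on both strands were counted in the same 300 bases; a stretch can count for more than 1 motif, and a match is not evidence of binding. The GC box of SP and KLF factors (GGGCGG) was found in 70.2% of the matched promoters, against 35.7% of the table. The ETS core was found in 23.9% against 8.86%, the NRF1 core in 7.27% against 2.71%, CRE in 4.01% against 1.79%, and the BANP and ZBTB33 element (TCTCGCG) in 6.30% against 2.56%. Shares of the ZFP143 element (ACTACAA, 5.12% against 3.24%), the YY1 element (AAGATGG, 8.16% against 6.34%), the E-box (CACGTG, 10.9% against 7.15%) and the CTCF core (AGGGGGC, 17.4% against 10.6%) were also above those of the table. The CCAAT box was at 38.6% against 37.4% and the RFX site (GTTGCC) at 11.6% against 12.5%. The TATA box was less frequent, at 5.22% against 13.6%. Much of this was shared with the 1707 matched promoters called in all 12 but left out for a long peak. They had the GC box in 78.0%, CRE in 4.51%, TCTCGCG in 8.03%, the CTCF core in 19.4% and the TATA box in 6.09%. Their shares of the ETS core (17.6%), the NRF1 core (5.33%), the YY1 element (7.56%), the E-box (10.6%) and ACTACAA (2.93%) were below those of the set. Most of the more frequent motifs contain CG or consist of C and G, and base composition differs between the sets as given above.

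Levels differed by motif within the set, as a description. The median centred log2 fold enrichment over the 12 libraries was 0.27 for the BANP and ZBTB33 element, 0.25 for CRE, 0.12 for NRF1 and 0.05 for ETS, against -0.02 over all 4940. It was -0.05 for the CCAAT box and -0.07 for the TATA box. A RefSeq start on the opposite strand within 1000 bp was found for 19.5% of the 4940 starts, against 15.1% of the table and 24.5% of the 1707 promoters left out for a long peak. Promoters with such a pair had a median level of 0.11, against -0.06 for those without.

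The highest summit lay downstream of the transcription start in most of the set, in every library. Its median position ran from 178 to 232 bp downstream over the 12 libraries, and 76.3% to 81.9% of summits lay downstream. Between 3.60% and 8.34% of summits lay within 50 bp of the start, where nucleosomes are usually depleted. A smaller group of summits lay upstream, with 14.4% to 20.4% of them within 500 bp before the start. In promoter regions called in 1 to 11 libraries, 64.6% to 74.7% of summits lay downstream.

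**Figure D3:**
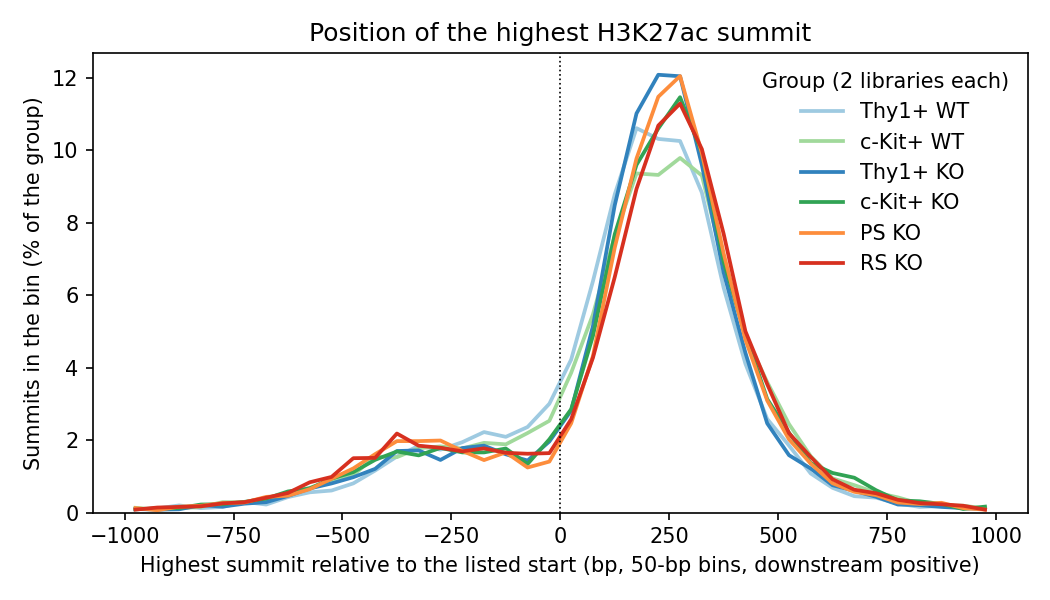
Position of the highest H3K27ac summit relative to the listed transcription start (bp, downstream positive, 50-bp bins), as the percentage of summits of each group of 2 libraries. In all 6 groups the 4 highest bins are those centred from 175 to 325 bp downstream, a low shoulder lies upstream, and few summits fall at the start.

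The side was not fixed for each promoter. Among 6028 promoters with a promoter-class summit in all libraries, the highest summit lay downstream in all 12 libraries for 2698 (44.8%), upstream or at the start in all 12 for 147 (2.44%), and on different sides in the rest. The positions of a promoter spanned a median of 496 bp over the 12 libraries.

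The relative levels of the promoters were more alike within an age class than across it. Over the 6120 promoters, Pearson's r of log2 fold enrichment was 0.806 to 0.923 between replicates, 0.836 to 0.884 between PS and RS libraries and 0.754 to 0.869 between spermatogonial libraries of different groups. It was 0.557 to 0.681 between adult and spermatogonial libraries. These are correlations across promoters, which are not independent replicates. The SD of a promoter's centred level over the 12 libraries had a median of 0.27 on the log2 scale (0.07 to 1.04), while the median absolute difference between 2 replicates was 0.16 in PS KO and RS KO and 0.21 to 0.23 in the spermatogonial groups.

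The highest, lowest, steadiest and most changed promoters named here were taken among the 5070 of the 6120 that are listed under a single gene symbol and lie off chromosome 18. The highest of the 5070 were those of Nr1d2, Cnbp, Chtop, Nfyc, Mfn2 and Tpp2, and the lowest those of Tmem74b, Ttc39a, Abcd2 and Fam189b. Chtop encodes a chromatin and mRNA export protein, Nfyc a subunit of NF-Y, and Mfn2 the mitochondrial fusion GTPase mitofusin 2. The fold enrichment of Nr1d2 (region on chromosome 14, 18237298 to 18239999, mm10) ran from 26.2 to 45.9 over the 12 libraries, with a median of 34.3. That of Cnbp ran from 22.7 to 43.2 (median 28.8) and that of Nfyc from 22.2 to 42.6 (median 29.9). Tmem74b (chromosome 2, 151701939 to 151703069) stayed between 3.25 and 7.09 with a median of 4.47, so it did not overlap any of these in any library.

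The steadiest of the 5070 were those of Tiprl, Tpp2, Dag1 and Drg1. Their SDs over the 12 centred libraries were 0.08 for Tiprl, Tpp2 and Dag1 and 0.09 for Drg1, the smallest of the 5070 by choice. Tiprl encodes a regulator of type 2A phosphatases, Dag1 dystroglycan and Drg1 a GTPase that binds the ribosome. Drg1 stood at 14.0 to 20.3 in the 7 spermatogonial libraries other than Thy1+ KO replicate 1, at 30.4 in that library, at 37.8 and 34.7 in PS KO and at 29.3 and 24.3 in RS KO. These values follow the library medians. The least steady were those of Spats2l, Pard3b, Itgb8 and Fbn1, with SDs of 0.96 to 1.04, and all 4 had their highest values in spermatogonia and their lowest in adult cells.

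Genes of 18 lists were looked up by symbol. Over all 19162 symbols in the tables, 36.4% had a promoter in the set and 50.02% a promoter region called in all 12 libraries, long ones included. A region can carry several symbols, and a listed gene may share its region with a neighbour. Of the ribosomal protein genes, 63 of 79 were in the set and the other 16 were left out only for a long peak, so that all 79 had a promoter region called in every library. The same held for the 53 splicing factor genes, with 30 in the set and 23 left out for length, and the 45 translation factor genes, with 28 and 17. Further lists of basic functions had 41 of 55 (general transcription machinery), 28 of 36 (proteasome), 46 of 58 (oxidative phosphorylation) and 42 of 53 (DNA replication and repair) genes in the set. Chaperones had 14 of 32, with 16 more left out for length, among them Hspa8 and Hsp90ab1.

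Among splicing factors, Ptbp2, a regulator of exon choice, ran from 21.1 to 41.0 with a median of 30.9, and Tra2a from 19.2 to 41.1 with a median of 25.9. Eef1a1, the elongation factor that brings aminoacyl-tRNA to the ribosome, had a median of 24.1, and Psma3, a subunit of the proteasome core, one of 25.3. Of the immediate early and stress response genes, which are switched on quickly by stimulation, 4 of 31 were in the set (Egr2, Gadd45a, Hmox1 and Cdkn1a) and 25 were left out for a long peak, among them Fos, Jun and Egr1. These 25 were called in all 12 libraries.

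Genes of acetylation enzymes and readers were in part in the set. Of 37 genes for writers, erasers and readers of acetylation, not of H3K27 alone, 20 were in it. Among them were Crebbp (the gene of CBP), Kat5, Hdac1, Hdac2 and Hdac3. Another 12, Ep300 among them, were left out for a long peak. Hdac2, a histone deacetylase, ran from 16.7 to 34.9 (median 23.0) and Kat5, an acetyltransferase, from 11.7 to 39.0 (median 21.9). Of 41 Polycomb genes, 19 were in the set, including Ezh2, Eed and Suz12, the core of PRC2, and Rnf2 and Bmi1 of PRC1. Ezh2 ran from 10.5 to 26.7 (median 16.2) and Rnf2 from 14.3 to 30.9 (median 19.0). Of the transcription factors that bind housekeeping promoters, 14 of 43 were in the set, among them Gabpa, Nfyb, Nfyc and Ctcf, and 23, among them Nrf1, Yy1, Sp1 and Nfya, were left out for length.

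Genes of restricted expression were rare in the set. None of 28 genes of somatic testis cells had a promoter in it, nor did more than 1 of 32 spermatid genes (Zpbp, of the acrosome) or 3 of 27 spermatogonial genes (Uchl1, Dnmt3b and Ccnd2). Another 3 somatic (Gata4, Cd68 and Cdh5), 8 spermatid (Prm2, Prm3 and Tnp2 among them) and 4 spermatogonial genes were left out only for a long peak, so that 10.7%, 28.1% and 25.9% of these lists had a region called in every library, against the 50.02% of all symbols. A region called in every library need not hold a peak of each listed promoter in every library: Cd68 had one of its own in 1 of 8 spermatogonial libraries. Of 51 germ cell and meiotic genes, 7 were in it: Dazl and Ythdc2, RNA binding regulators of germ cells, Tex14 of the intercellular bridges, Prdm9, which places recombination hotspots, Psmc3ip and Mnd1, which form the HOP2-MND1 complex of strand exchange, and Mlh3 of crossover formation. Mnd1 was weak throughout, from 3.62 to 8.61. Dazl stood at 5.58 to 8.51 in 7 spermatogonial libraries, at 13.2 in Thy1+ KO replicate 1 and at 18.7 to 25 in the 4 adult libraries, which did not overlap with the spermatogonia. Mlh3 stood at 4.34 to 7.57 in spermatogonia and at 11.9 to 17.6 in adult cells. At both, the 4 adult libraries also lay above the 8 spermatogonial ones after centring on the median of the 6120. The centred differences from c-Kit+ cells to PS did not pass, at limma adjusted p = 0.0779 for Dazl and 0.256 for Mlh3.

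Almost none of the 6120 promoters passed a test for a difference between knockout and wild type spermatogonia. Each comparison tested every region called in the libraries compared with limma and adjusted p by the Benjamini-Hochberg method over all of them; all 6120 entered each fit. In Thy1+ cells 0 of the 6120 passed an adjusted p of 0.05 (199 at an unadjusted p under 0.05), and 0.00932% of all 10727 regions did. In c-Kit+ cells 1 of the 6120 passed (261 unadjusted), with 0.00901% of 11101 regions called. With both cell types in 1 fit 0 passed (303 unadjusted), and 0% of 9502 regions did; the interaction of genotype and stage gave 0 (255 unadjusted). The replicate libraries of Thy1+ KO were unlike in level, and 3 of the 6120 passed in Thy1+ cells without Thy1+ KO replicate 2.

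The promoter that passed was that of Rbm38, which encodes an RNA binding protein induced by p53. Its fold enrichment was 10.8 and 8.68 in c-Kit+ WT and 5.20 and 3.50 in c-Kit+ KO, while Thy1+ cells had 5.24 and 4.22 in WT and 10.1 and 7.03 in KO. The c-Kit+ groups did not overlap, and in Thy1+ cells the KO libraries were the higher ones. The value of 3.50 in c-Kit+ KO replicate 2 was the lowest of the set in that library. No peak of that library had a lower height, so a weaker signal would not have been listed. Rbm38 fell by 1.22 on the log2 scale in c-Kit+ KO (SE 0.238, limma adjusted p = 0.0349). The part of this limit in the difference was not tested. The call was lost in all 4 fits that left out 1 library and in 6 of the 8 other alternatives.

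From Thy1+ to c-Kit+ cells, 5 of the 6120 promoters passed in WT, 2 higher and 3 lower (499 unadjusted), and 0.13% of 10013 regions were called. In KO 0 passed (479 unadjusted), with 0% of 11023 regions called. Gm5595, a predicted zinc finger gene, had fold enrichments of 5.24 and 4.83 in Thy1+ WT and 13.7 and 12.4 in c-Kit+ WT, and it rose by a log2 difference of 1.38 (SE 0.229, limma adjusted p = 0.00399). Rbm38 rose by 1.06 (SE 0.228, limma adjusted p = 0.0498). Trpc1, a cation channel gene, had 8.38 and 9.65 in Thy1+ WT and 3.99 and 4.34 in c-Kit+ WT and fell by 1.1 (SE 0.24, limma adjusted p = 0.0498). Another fall lay at a region shared by Hrc and Trpm4. None of the 5 passed under quantile normalization.

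From c-Kit+ cells to PS in the knockout, 1304 of the 6120 promoters (21.3%) passed, 369 higher and 935 lower than the median region. Over all 12469 regions tested, 31.9% were called, 6.87% higher and 25.1% lower. The rule keeps regions with a peak in every library, so a share below that of all regions is a description of the set. It also drops regions with a peak of 3000 bp or more, and peaks of the set were wider in PS. Their median widths were 1175 and 763 bp in c-Kit+ KO and 1896 and 1793 bp in PS KO. The part of the length limit in the shares was not tested. In bulk cells a smaller share of acetylated cells and less acetylation per cell cannot be told apart. The median log2 difference was -0.10 for the 6120 and -0.28 for the other 6349 regions. Uncentred, the median difference of the 6120 was 0.98, and 4952 were called higher and 19 lower. Under quantile normalization 117 were higher and 174 lower, so the direction is relative to the scaling. Without c-Kit+ KO replicate 2 no region passed (1394 of the 6120 unadjusted), and the other fits that left out 1 library called 536 to 1349.

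**Figure D4:**
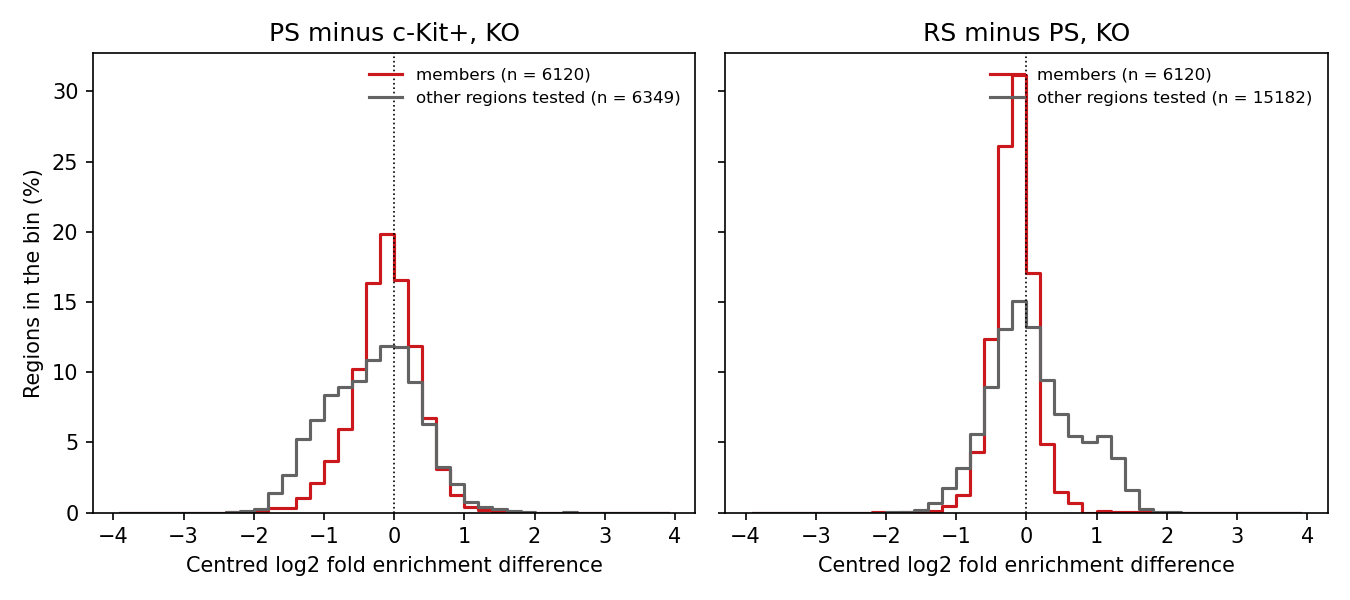
Distribution of centred log2 differences in fold enrichment between successive knockout stages, as the percentage of regions in bins of 0.2, for the 6120 promoters and the other regions called in all 4 libraries compared. The other regions are spread more widely on both sides. From c-Kit+ cells to PS their median is -0.28 against -0.10. Their 5th percentile is -1.38 against -0.93 and their 95th 0.69 against 0.60. From PS to RS their median is 0.02 against -0.17. Their 5th percentile is -0.84 against -0.64 and their 95th 1.24 against 0.26.

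The largest falls were at Spats2l, Cnrip1, Zfp462 and Pard3b. Spats2l (chromosome 1, 57774121 to 57775831), a gene of stress granule biology, had fold enrichments of 12.8 and 12.2 in c-Kit+ KO and 5.34 and 5.86 in PS KO, a log2 difference of -2.24 (SE 0.197, limma adjusted p = 0.000157). Cnrip1, whose product binds the cannabinoid receptor CB1, stood at 9.46 and 5.25 and then at 3.81 and 3.20, a difference of -2.09 (SE 0.219, limma adjusted p = 0.000195). Its value of 3.20 in PS KO replicate 2 was the lowest of the set in that library, at the lowest height of any peak there. The zinc finger gene Zfp462 (-2.07) and the polarity gene Pard3b (-1.94) fell in the same range. At all 4, both PS libraries lay below both c-Kit+ KO libraries before centring too. Groups that do not overlap were a condition of the choice. Of the other promoters of the least steady group, Itgb8, an integrin subunit (-1.80), and Fbn1, fibrillin 1 of the extracellular matrix (-1.59), also passed as lower.

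The largest rises were at Mroh1, Cklf, Cyp46a1 and Asb1. Mroh1 (chromosome 15, 76379236 to 76381744) had 3.78 and 5.25 in c-Kit+ KO and 28.2 and 32.5 in PS KO, a log2 difference of 1.69 (SE 0.25, limma adjusted p = 0.000452). Cklf, a chemokine-like gene, went from 4.73 and 4.66 to 23.3 and 37.9 (1.58, SE 0.235, limma adjusted p = 0.000468). Cyp46a1, cholesterol 24-hydroxylase, rose by 1.55 and Asb1, a substrate receptor of ubiquitin ligases, by 1.41. At all 4, every adult library, RS KO included, lay above every spermatogonial library, before and after centring on the median of the 6120. That c-Kit+ KO and PS KO do not overlap was a condition of the choice, so this part of the order is no result. How many of the 6120 share the order was not counted.

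Among the gene lists, ribosomal protein promoters had the most lower calls. Of 63, 26 passed as lower in PS and 0 as higher, where 15.3% of the 6120 were lower and 6.03% higher; the median log2 difference was -0.44 against -0.10 over the 6120. Rps6, of the small subunit, had 27 and 24.5 in c-Kit+ KO and 30.9 and 30.9 in PS KO, a centred difference of -0.81 (SE 0.192, limma adjusted p = 0.00646), and Rpl19, of the large subunit, had 26.5 and 20.4 and then 33.2 and 32 (-0.59, SE 0.188, limma adjusted p = 0.0296). Relative to the library medians these were falls, but without centring 33 of the 63 were called higher and 0 lower, with a median 0.35 below that of the 6120; under quantile normalization 6 were lower, and without c-Kit+ KO replicate 2 none passed.

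Other lists had fewer calls, to be read against those same shares of the 6120. Translation factors had 0 higher and 5 lower of 28, Eif2s2 among them (-0.58, SE 0.188, limma adjusted p = 0.0321), and the general transcription machinery 1 higher and 5 lower of 41, Med15 of the Mediator among them (-0.57). Cell cycle genes had 4 higher and 0 lower of 21. Higher and lower calls were 1 and 1 of 30 for splicing factors, 1 and 2 of 28 for the proteasome and 0 and 0 of 14 for chaperones. They were 1 and 3 of 46 for oxidative phosphorylation and 4 and 3 of 42 for DNA replication and repair. The writers, erasers and readers of acetylation had 1 and 0 of 20, and the Polycomb genes 3 and 2 of 19. Cohesin had 0 and 1 of 7 regions, and the transcription factors of housekeeping promoters 1 and 1 of 14. Lig3, a DNA ligase, and Rad21, a cohesin subunit, were lower (-0.66 and -0.89), although these and Eif2s2 and Med15 turned positive without centring. Suz12 of PRC2 was higher (0.71, SE 0.199, limma adjusted p = 0.0162), from 11.3 and 7.00 to 29.4 and 32. Germ cell and meiotic genes had 0 higher and 1 lower of 8 regions, spermatogonial genes 0 and 2 of 3 and spermatid genes 1 and 0 of 1. Immediate early and stress response genes had 0 and 0 of 4. The spermatid gene, Zpbp, was higher (1.02, SE 0.197, limma adjusted p = 0.00191), from 6.15 and 4.66 to 20.2 and 26.1. Dnmt3b of the spermatogonial list, a DNA methyltransferase, was lower (-1.32, SE 0.221, limma adjusted p = 0.000855). All calls in these lists were lost without c-Kit+ KO replicate 2.

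Calls differed with the sequence. Of the promoters outside the CpG limits given above, 26.4% were lower in PS and 4.62% higher, and of those inside 11.1% and 6.55%. The share of lower calls was 6.69% of promoters with the NRF1 core and 7.45% of those with the ETS core, against 14.4% of all 4940 matched promoters. CCAAT box promoters had 11.4% lower and 8.18% higher. These shares are descriptions; level and base composition differ between the groups, and their part in the shares was not tested.

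Markers of other cells differed between the libraries of this comparison. Of 15 markers of Sertoli, Leydig, myoid, endothelial cells and macrophages, 9 and 2 had a promoter peak in the c-Kit+ KO libraries, with summed fold enrichments of 46.3 and 12.2, and 11 and 11 in the PS KO libraries, with 80.5 and 97.6. Over the 8 spermatogonial libraries, the endothelial marker Cdh5 had a peak in 8, Sox9 of Sertoli cells and Acta2 of myoid cells in 6, Wt1 and Star in 5, another 6 in 1 to 3, and Csf1r, Pecam1, Cldn11 and Cyp17a1 in 0; Cyp17a1, of Leydig cells, had none in adult libraries either. In RS KO 8 and 8 were called, with 61.0 and 49.8. The c-Kit+ KO libraries held 36362 and 22949 peaks, those of PS KO 69042 and 64056 and those of RS KO 73316 and 63322. Summed fold enrichments are uncentred. Of 6 spermatocyte and spermatid markers, Prm1, Tnp1, Acrv1, Piwil1 and Ccna1 had promoter peaks in 0 of 8 spermatogonial and 4 of 4 adult libraries, and Sycp3 in 5 of 8 and 4 of 4. Of the spermatogonial markers, Kit had one in 6 of 8 and 4 of 4, Zbtb16 in 4 of 8 and 4 of 4, Stra8 in 1 of 8 and 2 of 4 and Gfra1 in 1 of 8 and 0 of 4. The part of other cells in the differences between stages, and that of peak number in the marker counts, was not tested.

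From PS to RS, 321 of the 6120 promoters (5.25%) passed, 26 higher and 295 lower. Over all 21302 regions tested, 21% were called, 13.3% higher and 7.71% lower. This split also moved with the scaling. Centring on the regions called in all 12 libraries gave 67 higher and 103 lower. No centring gave 8 and 907, and the stricter peak threshold 52 and 101. The limits of the rule given for the step before, on calls and on length, hold for these shares too. Without PS KO replicate 2 no region passed (916 of the 6120 unadjusted), and the other fits that left out 1 library called 120 to 146.

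The largest falls were at Kif21a, Cgnl1, Fam134b and Ctnnal1. Kif21a, a kinesin gene, had 18.7 and 21.3 in PS KO and 3.91 and 4.33 in RS KO, a log2 difference of -2.07 (SE 0.217, limma adjusted p = 0.0051). Its spermatogonial values ran from 4.22 to 10.3, below both PS libraries and overlapping those of RS. Cgnl1, a junction protein gene, went from 19.8 and 22.4 to 6.65 and 4.87 (-1.68, SE 0.198, limma adjusted p = 0.0051). Fam134b, a receptor for autophagy of the endoplasmic reticulum (-1.61), and Ctnnal1, related to α-catenin (-1.48), fell too. At each of the 4, both PS libraries lay above all 10 others before centring, and at none of them after centring on the median of the 6120. That PS and RS do not overlap was a condition of the choice.

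The largest rises were at 5430435G22Rik, Tgfbr2, Fam65b and Map1a. The region of 5430435G22Rik had 5.72 and 3.73 in PS KO and 12.5 and 11.9 in RS KO (1.61, SE 0.245, limma adjusted p = 0.0051). Its transcript was listed there in only 8 of the 12 libraries. The values are those of the highest summit of any peak class, so some may not be of its promoter. Tgfbr2, the type II receptor of TGFβ, had 7.63 and 7.46 in PS and 19.9 and 15.1 in RS (1.41, SE 0.194, limma adjusted p = 0.0051). Map1a, a microtubule protein gene, rose by 1.17 and Fam65b by 1.22. Relative to the median region, all 4 were lower in PS than in c-Kit+ cells, at limma adjusted p values of 0.000985, 0.00222, 0.00794 and 0.000208 for 5430435G22Rik, Tgfbr2, Fam65b and Map1a; both comparisons share the PS libraries. Prdm9 fell from 21.7 and 20.3 to 11.3 and 10.8 (-0.72, SE 0.201, limma adjusted p = 0.0298). Of the 63 ribosomal protein promoters 0 passed in either direction.

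The X chromosome held 174 of the 6120 promoters, 26.7 per 100 genes that the tables list on it, against 29.2 to 39.1 on the autosomes. The Y chromosome held 3, those of Eif2s3y, Uty and Ddx3y, whose X-linked partners are broadly expressed genes. Ddx3y, an RNA helicase gene, was lower in PS than in c-Kit+ cells relative to the median region (-1.02, SE 0.189, limma adjusted p = 0.0016), with 13.2 and 9.33 against 11.4 and 11.7 before centring. The highest X-linked promoters were those of the transcription factor Zfx, the cohesin subunit Stag2, the ubiquitin ligase Rlim, a regulator of X inactivation, and the chromatin remodeller Atrx. Zfx ran from 17.3 to 33.9 with a median of 23.1. Stag2 had a pair of regions in the set, with medians of 8.53 and 17.1.

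X-linked promoters lay below autosomal ones in every library, and further below in adult cells. The median of the 174 minus the autosomal median, on the log2 scale, was -0.37 and -0.35 in Thy1+ WT, -0.36 and -0.38 in c-Kit+ WT, -0.33 and -0.30 in Thy1+ KO and -0.44 and -0.35 in c-Kit+ KO. It was -0.47 and -0.60 in PS KO and -0.69 and -0.74 in RS KO. All 4 adult libraries lay below all 8 spermatogonial libraries, and both RS libraries below both PS libraries. No test was made of this order. From c-Kit+ cells to PS, 10 X-linked promoters (5.75%) were called higher and 39 (22.4%) lower, among the latter Zfx (-0.64, SE 0.187, limma adjusted p = 0.0199); of the 5943 autosomal promoters 6.04% were higher and 15.1% lower. The X-linked counts were 121 and 0 without centring, 1 and 4 under quantile normalization and 0 and 0 without c-Kit+ KO replicate 2. From PS to RS, 0 X-linked promoters were higher and 16 (9.20%) lower, against 0.437% and 4.69% of the autosomal ones. Here the X-linked counts were 0 and 47 without centring, 2 and 4 with centring on the regions called in all 12 libraries, 1 and 3 with the stricter peak threshold and 0 and 0 without PS KO replicate 2, and the other fits that left out 1 library had 0 higher and 3 to 7 lower. Relative to the autosomal promoters, the median X-linked difference was -0.17 in the first step and -0.08 in the second under no centring and both centrings, and -0.05 and -0.16 under quantile normalization. Being called in all 12 libraries, these are the X-linked promoters that stayed above the calling threshold.

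**Figure D5:**
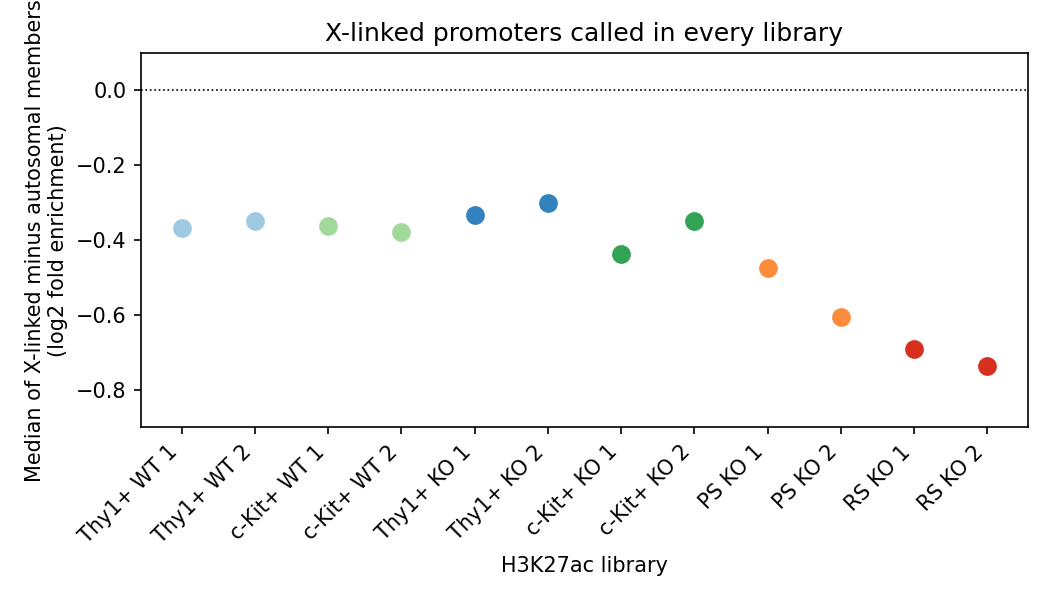
Median log2 fold enrichment of the 174 X-linked promoters minus that of the autosomal promoters of the set, 1 point per H3K27ac library, coloured by group. The 8 spermatogonial libraries lie between -0.44 and -0.30, PS KO at -0.47 and -0.60, and RS KO at -0.69 and -0.74.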

How the data were processed

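H3K27ac ChIP libraries (12) and input libraries (16) of mouse germ cells were used as 1 peak table per library. Per the submitters' processing notes, Bowtie and MACS2 were used with mm10; versions and thresholds are not given in the sources used here. Per the file headers, the tables give for each summit the height of the signal (pileup) and the fold enrichment, a ratio that the authors computed, and -log10 p and q values as deposited. In the values, the fold enrichment equals the height plus 1 over a constant background plus 1 in each library, with no input correction. The peak class and gene symbols are the authors' annotation.

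Peaks were merged in Python 3.11.15 (pandas 2.3.3, numpy 2.4.6). The highest summit of a library in a region was taken, log2 transformed without a pseudocount and centred on the library median over the regions tested. Comparisons used limma 3.58.1 (R 4.3.3) with Benjamini-Hochberg adjustment over all regions called in every library compared and a threshold of 0.05; the code was tested on simulated data. Genes were named by rule. The rules were highest and lowest mean, smallest and largest SD, up to 3 highest of each gene list, the 4 highest X-linked promoters, and genes set by name. In each comparison up to 4 largest rises and falls were named, among promoters that passed and whose groups do not overlap. The 5 promoters printed for a motif are the highest that hold it among those not already printed. The members and the gene lists were chosen with earlier results of these data known. Promoter sequences are from RefSeq (GRCm38.p6), and 75.4% of the listed starts whose symbol is in that table equal one of its starts. Alternatives were other centrings, quantile normalization, an intensity trend, a replicate block, a stricter peak threshold, other merges and limits, and each library left out in turn. A few items that the rules would name are not reported here.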

Additional observations from a re-analysis of the deposited data

How the results depend on the processing

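The read depth is unknown, and 2 libraries a group limit every comparison. Counts below are of the 6120 promoters that passed. Same-numbered replicates deviated together by a correlation of 0.000168 to 0.168 over the 7 fits checked. The main fits did not pair libraries by number, and a batch shared by same-numbered libraries was not tested. With a replicate block, 7 passed for genotype in Thy1+ cells, 1 in c-Kit+ cells, 10 from Thy1+ to c-Kit+ in WT and 13 in KO. From c-Kit+ to PS 1179 passed, from PS to RS 378, and 0 in the other fits. Over all regions, the block moved calls from 1 to 71 for genotype in Thy1+ cells. From Thy1+ to c-Kit+ in KO it moved them from 0 to 107. The block changed no call of the 45 gene values tried. The call for genotype in c-Kit+ cells became 0 without centring, under quantile normalization, with an intensity trend, with the stricter peak threshold, with summits within 500 bp and with a merge over the libraries compared. From Thy1+ to c-Kit+ in WT, 1 passed without centring and 1 with summits within 500 bp, and 0 with centring on all 12 libraries, quantile normalization or the stricter threshold; in KO, 1 passed with an intensity trend. From c-Kit+ to PS, 4971 passed without centring and 291 under quantile normalization. From PS to RS, 915 passed without centring, 170 with centring on all 12 libraries, 559 with an intensity trend and 153 with the stricter threshold.

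Leaving out 1 library gave 0 to 1349 from c-Kit+ to PS, 0 to 146 from PS to RS, 0 to 5 from Thy1+ to c-Kit+ in WT and 0 to 0 in KO, 0 to 3 for genotype in Thy1+ cells, and 0 to 0 for genotype in c-Kit+ cells, in all spermatogonia and for the interaction. Where this leaves 1 library in a group, it is assumed to vary like the other group. Without centring, log2 differences from c-Kit+ to PS turned positive at Rps6 (0.27), Rps7 (0.0742), Rpl19 (0.49), Eif2s2 (0.50), Lig3 (0.42), Rad21 (0.19), Mnd1 (0.14), Ddx3y (0.0597), Nr1d2 (0.40), Zfx (0.44), Med15 (0.51), Ccnd2 (0.50) and Fam189b (0.27, and 0.0102 under quantile normalization). The share of promoters with the CpG limits was 82.9% with the stricter threshold, 80.3% with no length limit and 70.1% with peaks under 2000 bp, which left 2793 promoters. Beyond the settings whose construction shows it (fewer regions or samples), the cause was not tested.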
